A study of Mus musculus with 6 samples.

Results

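The 10 genes described here write or remove methyl groups on lysine 36 of histone H3 (H3K36). They were chosen by name for that function and not for how they moved, although earlier results of these data were known. They are 10 of the 24517 genes listed in the count files. Nsd1, Nsd2, Nsd3, Ash1l, Setd2 and Smyd2 encode methyltransferases, and Kdm2a, Kdm2b, Kdm4a and Kdm4c encode demethylases. The questions were how much Nsd2 transcript remained in whole colon after its deletion from the intestinal epithelium, and whether transcripts of the other 9 genes differed in the same tissue. Colon RNA was sequenced in 3 libraries of NSD2fl/fl mice, which carry floxed Nsd2 alleles, and 3 of NSD2∆IE mice, in which those alleles are deleted by Cre under the Villin promoter. The background was C57BL/6J, and both groups were fed a high-fat cholesterol diet (HFCD) for 16 weeks according to the labels. The methods give a longer feeding time and describe male littermates aged 7 to 8 weeks at the start. Whether the controls carried Cre is not given in the sources used here. Villin-Cre acts in epithelium, so muscle, stroma, nerve and immune cells of the colon lie outside the intended deletion. Which cells kept Nsd2 was not tested.

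Each library held 38041832 to 38604680 counts, and all 10 genes had at least 724 counts in every library. The libraries of the 2 genotypes also differed at sex-linked genes. Xist, the RNA that silences one X chromosome in females, had 4, 0 and 3 counts in NSD2fl/fl and 24234, 21217 and 23403 in NSD2∆IE. Summed over 4 genes of the Y chromosome (Uty, Kdm5d, Ddx3y and Eif2s3y), counts came to 6110, 5208 and 5058 in NSD2fl/fl and to 0, 0 and 1 in NSD2∆IE. This pattern goes against an all-male design, and it separates the same libraries as the genotype, so for every difference below the genotype and the sex-linked pattern cannot be told apart. The libraries also formed 2 sets on the first principal component (51% of the variance), with NSD2fl/fl replicates 1 and 3 and NSD2∆IE replicate 1 on one side. Differences within each set are given for Nsd2.

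H3K36 methylation is laid down in graded states by different enzymes. NSD1, NSD2, NSD3 and ASH1L add up to 2 methyl groups (H3K36me2), a mark of gene bodies and intergenic chromatin, and SETD2 travels with elongating RNA polymerase II and adds the third (H3K36me3). KDM2A and KDM2B remove the lower states, KDM4A and KDM4C remove the higher states and also act on H3K9, and SMYD2 methylates H3K36 and many non-histone proteins. H3K36 methylation restrains PRC2, the complex that methylates H3K27.

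Nsd2 lies on the plus strand at chr5:33820725-33897975 (mm10), and the annotation (GENCODE M21) lists 15 transcripts for it. The scheme of the floxed allele places the loxP sites around exon 3 without naming a transcript, and exon 3 differs between transcripts. In the 23-exon transcript it is the 626-base exon that holds the start codon (chr5:33843112-33843737), which makes up 3.72% of the length over which reads were counted. In the 21-exon transcripts it is a 167-base coding exon (chr5:33854610-33854776), 0.994% of that length. That length is 16809 bases, more than any single transcript holds. The 23-exon transcript has 7142 bases and the longest transcript 7786, so each exon is a larger share of a transcript than of that length. The missing exon alone still removes only a small part of a count over the whole gene. Of the 6 transcripts that start after both exons, 1 is labelled protein coding. The rest are labelled retained introns (454 to 1004 bases) or nonsense-mediated decay. The sequences below show the stretches that bear on what a gene-wide count and the study's mouse Nsd2 PCR can measure. The first is the start of the coding sequence (chr5:33843141-33843260) with the start codon in capitals. The second is the 167-base exon, and the last pair are the primers as the study lists them, in capitals throughout. Every base of the forward primer matches the transcript, and every base of the reverse primer matches the complementary strand.
start codon exon, coding start: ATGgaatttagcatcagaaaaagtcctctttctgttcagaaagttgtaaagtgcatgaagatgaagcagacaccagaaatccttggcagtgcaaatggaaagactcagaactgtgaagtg
167-base exon: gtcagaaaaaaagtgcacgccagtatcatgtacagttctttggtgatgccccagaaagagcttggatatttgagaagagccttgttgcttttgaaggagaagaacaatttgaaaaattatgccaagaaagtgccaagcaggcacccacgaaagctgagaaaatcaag
forward primer: TGCCAAAAAGGAGTACGTGTG
reverse primer: CTTCGGGAAAGTCCAAGGCAG
The forward primer matches chr5:33879165-33879185 and the reverse primer chr5:33880117-33880137, giving a product of 111 bases after splicing. The forward primer lies 35.4 kb downstream of the start codon exon and 24.4 kb downstream of the 167-base exon. Of the 7 transcripts that hold both primers, 1 starts at base 33879151, after both candidate exons. Both the gene-wide count and this PCR product thus take in Nsd2 RNA that lacks the floxed exon.

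Nsd2, the gene targeted for deletion, was lower in all 3 NSD2∆IE libraries and was still detected in each. It had 1840, 2091 and 2455 counts in NSD2fl/fl and 972, 914 and 1139 in NSD2∆IE. As CPM, counts relative to the library total scaled by TMM, these were 47.8, 59.1 and 68.9 against 24.5, 23.1 and 27.5. The highest NSD2∆IE library lay well under the lowest NSD2fl/fl library, and the spread was smaller in NSD2∆IE (25.0 ± 2.24 CPM) than in NSD2fl/fl (58.6 ± 10.6 CPM; SD, n = 3 per group). The log2 fold change was -1.23 (SE 0.159, 95% interval -1.61 to -0.85), so that 32.8 to 55.5% of the NSD2fl/fl level remained by the same interval. By edgeR's quasi-likelihood test the unadjusted p was 0.000133 and the adjusted p over 16347 genes was 0.302, past the study's threshold (unadjusted p under 0.05 and a log2 fold change beyond 0.32 either way) but not past an adjusted p of 0.05. At an adjusted p under 0.05, 0.0245% of genes were called lower and 0.00612% higher, 5 genes in all, each of them sex-linked. The study's threshold called 2.21% of genes lower and 8.05% higher. The Wald test of DESeq2 gave Nsd2 an adjusted p of 3.88e-07, where 0.312% of genes were called lower and 2.47% higher. Within the principal component sets, each of which holds a genotype with only 1 library, the log2 difference of Nsd2 was -1.23 in both. Its log2 fold change was below 0 under all 15 alternative settings, from -1.36 to -0.75.

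**Figure D1:**
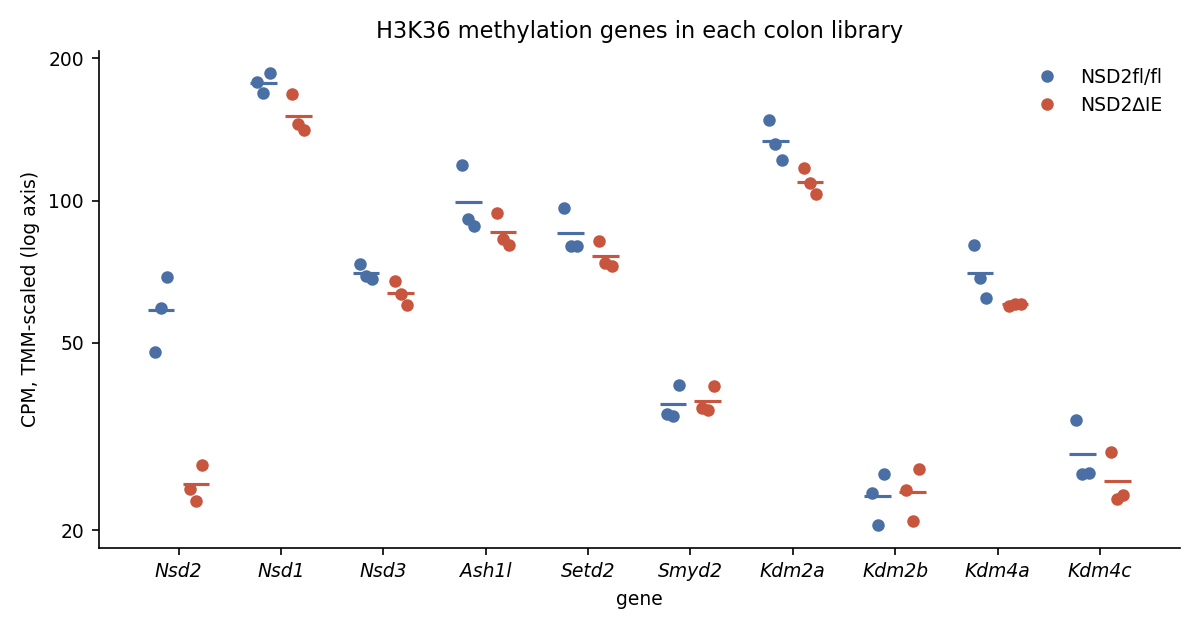
CPM (log axis) of the 10 genes in each library, with a point per library and a bar at the group mean, for NSD2fl/fl (blue) and NSD2∆IE (red). Nsd2 at 23.1 to 27.5 CPM in NSD2∆IE stands clear of 47.8 to 68.9 in NSD2fl/fl, while the points of the other genes lie close together or overlap.

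The remaining Nsd2 was also expressed relative to genes of the same library, which does not depend on how libraries are scaled. In CPM, Nsd2 in NSD2∆IE was 41.8, 39.4 and 46.8% of the NSD2fl/fl mean (42.7 ± 3.82%, SD, n = 3), against an SD of 18.1% among the NSD2fl/fl libraries. In FPKM, which is scaled to library totals and gene length, it was 46.9 ± 5.56%. Over the geometric mean of the 9 other genes it was 43.5, 45.2 and 52.6% (47.1 ± 4.8%), a log2 difference of -1.06. Over its paralogs Nsd1 and Nsd3 it was 48.8 ± 6.92%. The genotypes did not overlap with any of these denominators, and the two-sided exact permutation test gave p = 0.1 for each, the smallest that 3 against 3 libraries allow. Set against each of the 9 genes alone, the log2 ratio of Nsd2 was lower by -0.93 (Kdm2a) to -1.25 (Kdm2b), again with no overlap and an exact permutation p of 0.1 in each of the 9 comparisons, before and after adjustment over them.

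Whole colon mixes cell types, and fewer cells of a type cannot be told apart from less RNA per cell in bulk samples. Nsd2 was therefore also set over epithelial markers (Epcam, Cdh1, Krt8, Krt18, Krt19, Krt20, Vil1, Cldn7 and Lgals4), where 50.4 ± 6.86% remained. Over Vil1, whose promoter drives the Cre, 50.7 ± 9.18% remained, and over 6 markers of proliferating cells 51.7 ± 12.7%. All 9 epithelial markers were detected in every library, with summed levels of 13241 to 21916 CPM in NSD2fl/fl and 12692 to 14619 in NSD2∆IE. All 9 had log2 fold changes below 0 (median -0.30), none with an unadjusted p under 0.05, and Vil1 was at -0.32 (SE 0.27). The 8 smooth muscle markers summed to 1379 to 4016 CPM in NSD2fl/fl and to 5001 to 10719 in NSD2∆IE, and 6 of them passed an unadjusted p under 0.05. The markers of enteric neurons were at 44.1 to 77.0 against 95.1 to 124 CPM, with 6 of 6 past that limit, and those of enteric glia at 12.4 to 17 against 24.0 to 37.6 CPM, with 4 of 4. Every marker of smooth muscle, neurons and glia was fitted above 0. At that limit in edgeR, 8.15% of all genes were called higher and 2.96% lower. No marker gene passed an adjusted p under 0.05 in edgeR. The part of these cell types in the level of Nsd2 was not tested.

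**Figure D2:**
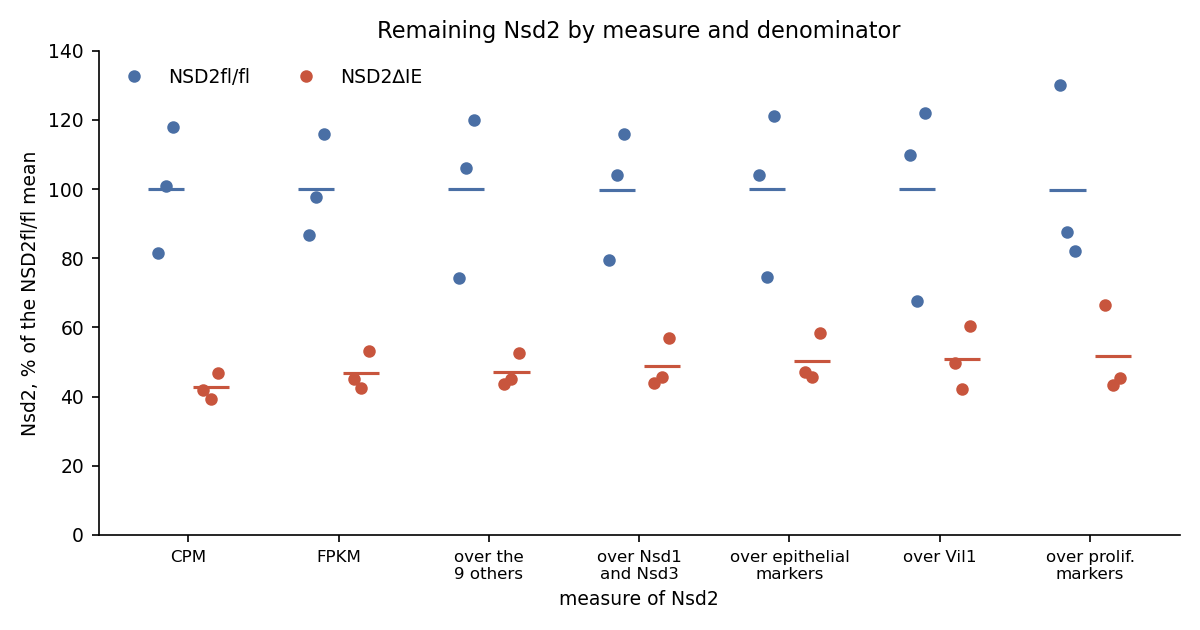
Nsd2 in each library as a percentage of the NSD2fl/fl mean, without a denominator (CPM, FPKM) or over the geometric mean of other genes; points are libraries and bars group means. The NSD2∆IE means lie between 42.7% and 51.7%, and the genotypes are separate in each column.

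Of the other H3K36me2 writers, Nsd1 had the highest CPM and FPKM of the NSD genes in this tissue. It had 178, 169 and 186 CPM in NSD2fl/fl and 168, 145 and 141 in NSD2∆IE. The NSD2∆IE libraries lay below all NSD2fl/fl libraries, the closest by about 1 CPM, and the log2 fold change was -0.23 (95% interval -0.51 to 0.04, adjusted p = 0.519). Nsd3, which also encodes a short form without the catalytic domain, was at 73.3, 69.3 and 68.3 against 67.5, 63.3 and 60.1 CPM. It too was separate in CPM, with a log2 fold change of -0.14 (-0.37 to 0.09, adjusted p = 0.632). Ash1l, the trithorax-group writer, was at 119, 91.4 and 88.1 against 94.3, 82.7 and 80.6 CPM. Its groups overlapped, NSD2fl/fl replicate 1 stood above the rest, and the log2 fold change was -0.21 (-0.56 to 0.14, adjusted p = 0.639). Without that library it was -0.07. None of these intervals, all from the TMM-scaled fit, reached a rise of 0.32 on the log2 scale.

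Setd2, the H3K36me3 writer, had 96.2, 80.0 and 80.2 CPM in NSD2fl/fl and 82.2, 73.8 and 72.6 in NSD2∆IE. The groups overlapped and the log2 fold change was -0.17 (-0.44 to 0.11, adjusted p = 0.647). Smyd2 had 35.3, 34.9 and 40.7 against 36.4, 36 and 40.5 CPM, nearly the same range in both genotypes. Its log2 fold change of 0.03 (-0.24 to 0.29, adjusted p = 0.945) changed sign under 4 of the 15 settings.

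Among the erasers, Kdm2a, a CpG-island-binding H3K36 demethylase, had 148, 132 and 122 CPM in NSD2fl/fl and 117, 109 and 103 in NSD2∆IE. The groups did not overlap, and the log2 fold change was -0.29 (-0.57 to -0.02, adjusted p = 0.427). It was the single gene among the other 9 with an unadjusted p under 0.05 (0.0409 by edgeR's quasi-likelihood test), where 2.96% of all genes were called lower and 8.15% higher. Leaving out NSD2fl/fl replicate 1 or 2, or any NSD2∆IE library, ended that call. Kdm2b, which brings a variant Polycomb complex to CpG islands, had 24.0, 20.5 and 26.3 against 24.3, 20.9 and 27.0 CPM. These ranges coincided, and its log2 fold change of 0.03 (-0.33 to 0.39, adjusted p = 0.951) changed sign under 3 of the 15 settings. With TMM, the upper bound of Kdm2b was the one among the 9 genes that reached past a rise of 0.32. With library totals alone, Kdm2b and Smyd2 were each at 0.16, and intervals were not taken under that scaling.

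Kdm4a, an H3K9 and H3K36 demethylase, had 80.5, 68.4 and 62.1 CPM in NSD2fl/fl and 59.9, 60.4 and 60.3 in NSD2∆IE. The 3 NSD2∆IE values were almost equal and lay below all others, with a log2 fold change of -0.22 (-0.51 to 0.06, adjusted p = 0.553). Kdm4c, of the same family, had 34.2, 26.3 and 26.5 against 29.3, 23.3 and 23.8 CPM. Its groups overlapped, with a log2 fold change of -0.19 (-0.56 to 0.19, adjusted p = 0.703).

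**Figure D3:**
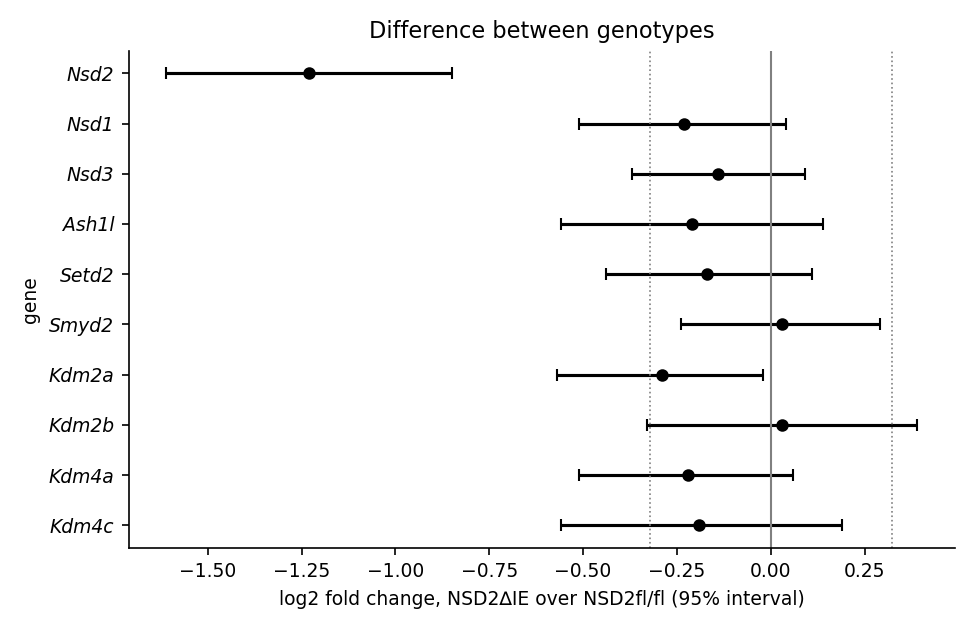
Log2 fold change of NSD2∆IE over NSD2fl/fl for the 10 genes, with 95% intervals derived from edgeR's F statistic (3 libraries per genotype). Dotted lines mark a log2 fold change of 0.32 each way. The interval of Nsd2 (-1.61 to -0.85) lies apart from the others, of which that of Kdm2a (-0.57 to -0.02) alone leaves out 0.

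Of the 9 other genes, 0 passed an adjusted p under 0.05 in edgeR or DESeq2 and 0 passed the study's threshold, in either direction. Of all genes, the study's threshold called 2.21% lower and 8.05% higher. An adjusted p under 0.05 called 0.0245% and 0.00612% in edgeR and 0.312% and 2.47% in DESeq2. By each rule 0 of 9 is near the background. In edgeR 1 was lower and 0 higher at an unadjusted p under 0.05. That limit called 2.96% of all genes lower and 8.15% higher, so these counts are also near the background. In TMM-scaled CPM, 4 of the 9 (Nsd1, Nsd3, Kdm2a and Kdm4a) were lower in every NSD2∆IE library than in every NSD2fl/fl library and 0 were higher, where 7.28% of all genes were lower without overlap and 11.4% higher. With CPM from library totals alone, 0 of the 9 were separate in either direction, and Nsd2 was still lower without overlap. Of all genes, 1.96% were lower and 16.1% higher without overlap by that scaling, so 0 of 9 lower is near the background. The separation of these 4 genes thus depended on the scaling, which moved the median of all genes by 0.127 on the log2 scale. The median log2 fold change of the 9 was -0.186 beside -0.0415 for all genes tested with TMM, and -0.0676 beside 0.0857 with library totals alone. Under both scalings 7 of the 9 were fitted below 0 and 2 (Smyd2 and Kdm2b) above. NSD2fl/fl replicate 1 was the highest library for 6 of the 10 genes and NSD2∆IE replicate 3 the lowest for 5.

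**Figure D4:**
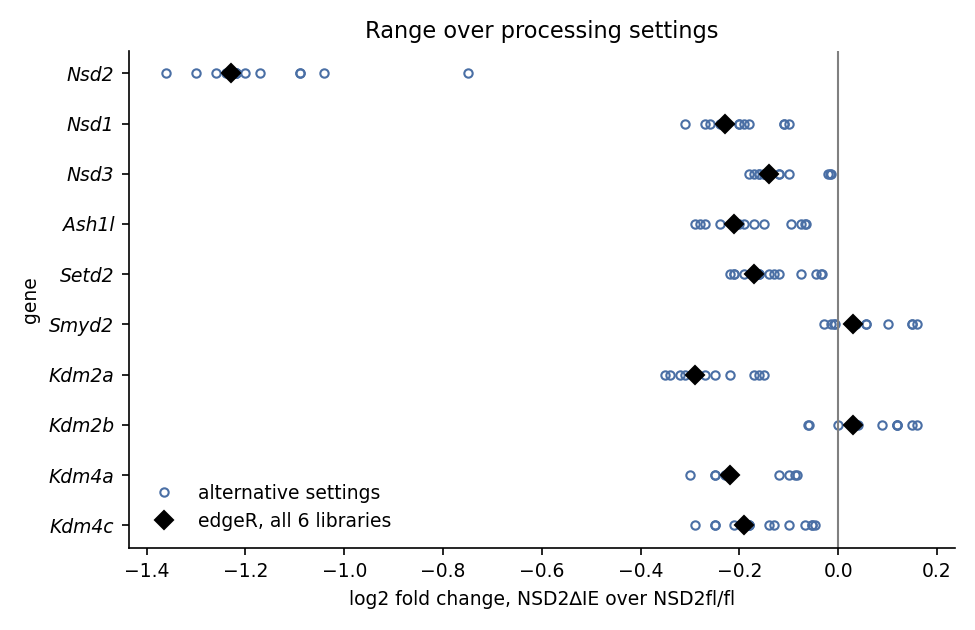
Log2 fold change of each gene with edgeR on all 6 libraries (diamonds) and under 15 alternative settings (circles). Nsd2 stays between -1.36 and -0.75, while Smyd2 and Kdm2b lie on both sides of 0.

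Levels of different genes were compared as FPKM, which divides by a length set for each gene. For Nsd2 that length was 16809 bases, while its longest annotated transcript has 7786. Order and shares below therefore depend on the lengths used. In NSD2fl/fl the order of mean levels was Smyd2 at 18.8 FPKM, Kdm2a at 15.1, Kdm4a at 13.2, Nsd1 at 11.4, Setd2 at 9.19, Ash1l at 7.01, Nsd3 at 5.09, Kdm4c at 4.34, Kdm2b at 3.53 and Nsd2 at 3.32. The order was the same in NSD2∆IE, where Nsd2 was at 1.56 ± 0.184 FPKM. Neighbours in this order overlapped over the NSD2fl/fl libraries except Ash1l and Nsd3, so Nsd2 and Kdm2b did not differ in FPKM beyond their spread in controls. With these lengths Nsd2 was a minor part of the summed FPKM of H3K36me2 writers in NSD2fl/fl colon. It made up 9.8, 13.2 and 14.6% of the summed FPKM of Nsd1, Nsd2, Nsd3 and Ash1l in NSD2fl/fl (12.5 ± 2.45%, SD, n = 3) and 5.92, 6.27 and 7.59% in NSD2∆IE (6.59 ± 0.884%). Without Nsd2, that sum was 23.5 ± 2.66 FPKM in NSD2fl/fl and 22.1 ± 1.5 in NSD2∆IE, a difference smaller than the spread, and with Nsd2 it was 26.8 ± 2.37 against 23.7 ± 1.49. Within the NSD genes alone, the share of Nsd2 was 16.8 ± 2.52% against 9.12 ± 1.19%.

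**Figure D5:**
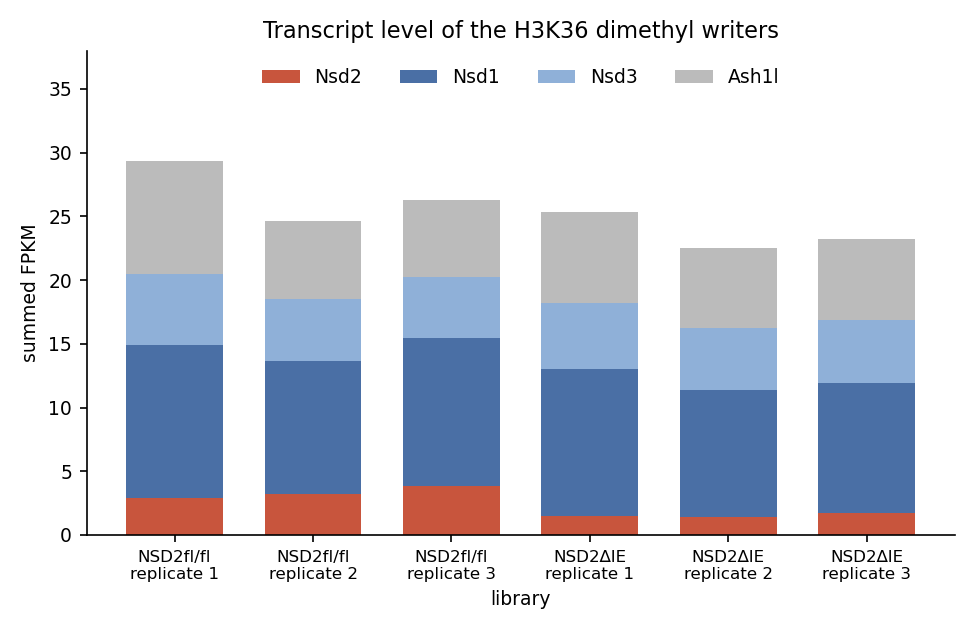
Summed FPKM of Nsd2, Nsd1, Nsd3 and Ash1l in each library, stacked from 0. The Nsd2 segment is 9.8 to 14.6% of the bar in NSD2fl/fl and 5.92 to 7.59% in NSD2∆IE, and the rest of the bar is 21.4 to 26.5 against 21.1 to 23.8 FPKM.

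A further 32 genes of the H3K36 pathway were followed, chosen for function with earlier results of these data known. They were other writers and erasers, proteins that read H3K36 methylation, cofactors of SETD2, PRC2 and the complex of KDM2B. Of the 31 that passed the filter on low counts (Kdm4d did not), 0 passed an adjusted p under 0.05 in edgeR or DESeq2. At an unadjusted p under 0.05 in edgeR 0 passed in either direction, where 2.96% of all genes were called lower and 8.15% higher. The adjusted limit called 0.0245% of all genes lower and 0.00612% higher in edgeR, and 0.312% and 2.47% in DESeq2. With TMM 21 were fitted below 0 and 10 above, and with library totals alone 19 were above, so the direction of the list flipped with the scaling. Named after their values were seen, 3 genes, the reader Brpf1, the reader Glyr1 and the elongation factor Supt6, were lower without overlap in TMM-scaled CPM, and Kdm8 and the PRC2-associated reader Phf19 were higher. These were 3 and 2 of 31 genes, where 7.28% of all genes tested were lower without overlap and 11.4% higher, so neither count stood apart from the background. Phf19 was furthest from 0, at 3.17, 6.30 and 5.22 CPM in NSD2fl/fl and 7.34, 6.48 and 8.53 in NSD2∆IE, which gave 0.61 ± 0.282 (SE) as log2 fold change, with 0.49 as adjusted p. The PRC2 enzyme genes Ezh1 and Ezh2 were at -0.13 and -0.19, and the core subunit genes Eed and Suz12 at -0.13 and -0.16, with adjusted p-values of at least 0.684.

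The remaining genes lie at chr13:55209782-55318325 (Nsd1), chr8:25601601-25719667 (Nsd3), chr3:88950622-89079375 (Ash1l), chr9:110532597-110618633 (Setd2), chr1:189880492-189922363 (Smyd2), chr19:4314419-4398285 (Kdm2a), chr5:122870665-122989823 (Kdm2b), chr4:118136957-118180043 (Kdm4a) and chr4:74242497-74405860 (Kdm4c) in mm10. Exons of 4 of the 10 share bases with a gene on the other strand. Nsd2 shares 60 bases with Nelfa, Ash1l 352 with Dap3, Smyd2 814 with Gm37422 and Kdm2b 627 with Rnf34. Whether reads were counted by strand is not given in the sources used here, so reads in these stretches cannot be assigned to one gene with certainty.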

How the data were processed

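Total RNA of mouse colon was sequenced in 6 libraries, 3 per genotype, grouped by the labels; that each library is a separate animal is not stated, so p-values measure the spread between these samples. The authors deposited raw counts per gene and FPKM values; the labels name fastp, HISAT2, HTSeq, R 3.2.0 and the build mm10, without order, options, annotation or strand setting. Counts were tested with edgeR 4.0.16 in R 4.3.3 (filterByExpr, TMM, quasi-likelihood test, two-sided, Benjamini-Hochberg over 16347 genes). FPKM was used to compare genes and, as log2(FPKM + 1) and log2(FPKM + 0.1), with limma 3.58.1 as an alternative. Other alternatives were RLE factors, library totals alone, no filter, the replicate number as a block, the principal component sign as a covariate, each library left out, and DESeq2 1.42.0. DESeq2 was first run on all genes with reads. After its counts had been seen it was set to the filtered genes, so that only the tool changed, and both are reported. Ratios were tested by exact permutation over the 6 libraries. The fit was tested on simulated counts. Coordinates and Nsd2 exon sequences came from GENCODE M21 (GRCm38), primers from the study's list. The genes and lists were chosen with earlier results of these data known. Named were the 10 genes, pathway genes past the study's threshold (none), sex-linked genes, and the 5 genes nearest to Nsd2 by root mean square difference of centred log2 CPM (prior count 2) among those with a mean log2 CPM of at least 1. Of the 13 marker lists, those of epithelium, proliferating cells, smooth muscle, neurons and glia are in the report and the rest under other observations.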

Additional observations from a re-analysis of the deposited data

How the results depend on the processing

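Over 15 alternatives Nsd2 kept its direction and, in 13, its side of an adjusted p of 0.05 (0.146 to 0.99). It passed with DESeq2 (log2 fold change -1.22, adjusted p = 3.88e-07) and with DESeq2 on all genes with reads (-1.23, 1.17e-06). The fit on all genes was run first, and DESeq2 was set to the filtered genes after its counts had been seen. The cause was not tested. Its largest shift was to -0.75 with log2(FPKM + 1), where the pseudocount compresses low values. With the replicate block Nsd2 was at -1.22 (adjusted p = 0.221). The deviations of same-numbered libraries correlated at 0.501, 0.643 and -0.166, so the numbers were not taken to pair the libraries, and the block moved neither count below. The count of the 9 other genes at an unadjusted p under 0.05, 1 as reported, was 0 with library totals alone, with the principal component covariate, with log2(FPKM + 1) and with log2(FPKM + 0.1), and 0 to 2 with 1 library left out. The count of pathway genes, 0 as reported, was 1 with library totals alone, log2(FPKM + 1), log2(FPKM + 0.1) and DESeq2 on all genes with reads, and 0 to 3 with 1 library left out. Smyd2 changed sign to -0.00564 without the filter and, with NSD2fl/fl replicate 1, NSD2fl/fl replicate 2 or NSD2∆IE replicate 3 left out, to -0.00908, -0.0143 and -0.0294. Kdm2b changed sign to -0.000665 without the filter, and to -0.0618 and -0.06 without NSD2fl/fl replicate 2 and NSD2∆IE replicate 3, with 0.12 as the highest value with 1 library left out. The other 7 genes kept their direction throughout. Nsd2 relative to the other 9 stayed between -1.26 and -0.92 over 9 alternatives. With 3 libraries per genotype the exact test cannot go below 0.1.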

Other observations

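The genes whose pattern over the 6 libraries lay nearest to that of Nsd2, of 13110 compared, were Grin1os (root mean square difference 0.127 on the log2 scale), Sprr2a1 (0.257), Col6a5 (0.272), Nr4a3 (0.275) and Trim72 (0.3). Sprr2a1, a small proline-rich epithelial protein gene, had 265, 501 and 351 CPM in NSD2fl/fl and 192, 150 and 185 in NSD2∆IE. Grin1os was at 6.15, 8.76 and 10.8 against 4.24, 3.53 and 4.17 CPM. The adjusted p-values of these 5 genes in edgeR were 0.302 to 0.369, and they were picked for their likeness to Nsd2, so their differences are a description.

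Summed markers of the other cell types overlapped between the genotypes, except those of adipocytes. Those of fibroblasts were at 1124 to 1408 CPM in NSD2fl/fl and 1161 to 1310 in NSD2∆IE, of endothelium at 141 to 176 and 151 to 174, of macrophages at 206 to 278 and 261 to 279, and of T cells at 19.9 to 38.5 and 25.9 to 38.9. Markers of B and plasma cells were at 1261 to 2408 and 1045 to 1512 CPM, and those of adipocytes at 14.8 to 30 and 31.0 to 65.2. All 6 markers of B and plasma cells had log2 fold changes below 0 (median -0.75), none with an unadjusted p under 0.05 in edgeR. The 4 adipocyte markers tested were all above 0 (median 1.77), 1 of them with an unadjusted p under 0.05 in edgeR. Single markers of fibroblasts, endothelium, macrophages and T cells went both ways. At that limit 2 of the 6 fibroblast markers passed and 0 of the other lists in this group. Of all genes, 2.96% were called lower and 8.15% higher. Colon markers, among them Car1 and Slc26a3, were present in all libraries at 6914 to 25109 and 7564 to 18096 CPM. Small intestinal markers were at 3.17 to 29.3 and 4.84 to 271 CPM, and 1 of the 2 tested had an unadjusted p under 0.05 in edgeR. Proliferation markers were at 339 to 735 and 337 to 520 CPM, and all 6 had log2 fold changes below 0 (median -0.37), none with an unadjusted p under 0.05 in edgeR.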
